A study of Mus musculus with 2 samples.

Results

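The Hox genes encode homeodomain transcription factors that lie in 4 clusters, HoxA to HoxD, on mouse chromosomes 6, 11, 15 and 2. All 50 probes whose platform gene symbol was Hox, a cluster letter and a number were taken, of 25697 probes on the array, and they stood for 38 genes of 16593. Total RNA had been measured on 1-colour Illumina bead arrays in mouse embryonic fibroblasts of C57BL background, 1 array for each of 2 genotypes. The Dnmt1-/- (p53-/-) line lacked p53 and also Dnmt1, the methyltransferase that restores CG methylation after replication, and the p53-/- line lacked p53 alone, so the loss of p53 was shared by both. Both were kept in Dulbecco's modified Eagle's medium with foetal calf serum. The labels give neither the number of embryos behind each line, nor their age or sex, nor the part of the embryo that was used. With 1 array per genotype no test was possible, no value has an error from replicates, and a difference between the genotypes and a difference between these lines cannot be told apart.

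Along each cluster, Hox genes are numbered in the order in which they lie, and genes with the same number in different clusters form a paralog group, numbered up to 13. In the embryo the low numbers are switched on first and mark the hindbrain and neck, and the high numbers are switched on later and mark the lumbar region, the tail and the ends of the limbs. Fibroblasts in culture are known to keep the Hox pattern of the body site they came from, Polycomb proteins keep unused Hox genes silent, and retinoic acid activates the low-numbered ones.

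In the Dnmt1-/- (p53-/-) fibroblasts, the detected low-numbered Hox genes were lower and most detected high-numbered ones higher. The authors' table gives each probe a signal, in arbitrary units, and a detection p-value, which compares it with background, and a gene was called detected where that p-value was under 0.01. This held for 21 of the 38 genes (55.3%), beside 46.6% of all 16593 genes. Of these Hox genes, 16 were detected on the Dnmt1-/- (p53-/-) array and 15 on the p53-/- array. Differences were taken between log2 levels after background correction and quantile normalization. Of these 21 genes, 6 passed 2-fold upward, 9 passed it downward and 6 lay in between. Among all 7727 detected genes the shares were 5.55% upward and 4.59% downward. In such bulk RNA, fewer cells that express a gene and less of its RNA per cell cannot be told apart. All 6 detected genes of paralog groups 1 to 4 were lower by 2-fold or more, and 4 of the 6 without background correction or with an offset of 50. Of the 8 detected genes of groups 9 to 13, 5 were higher and 0 lower. Levels left uncorrected for background gave 2 higher of these 8, and the offset of 50 gave 4. Of the 7 detected genes between them, in groups 5 to 8, 1 was higher and 3 lower. All 7 were detected on both arrays. In groups 1 to 4 this held for 2 of 6 genes (Hoxb2 and Hoxb4, both lower), and in groups 9 to 13 for 1 of 8 (Hoxc9, higher). The remaining genes of these outer groups were detected on 1 array alone, which favours the sign of the difference.

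**Figure D1:**
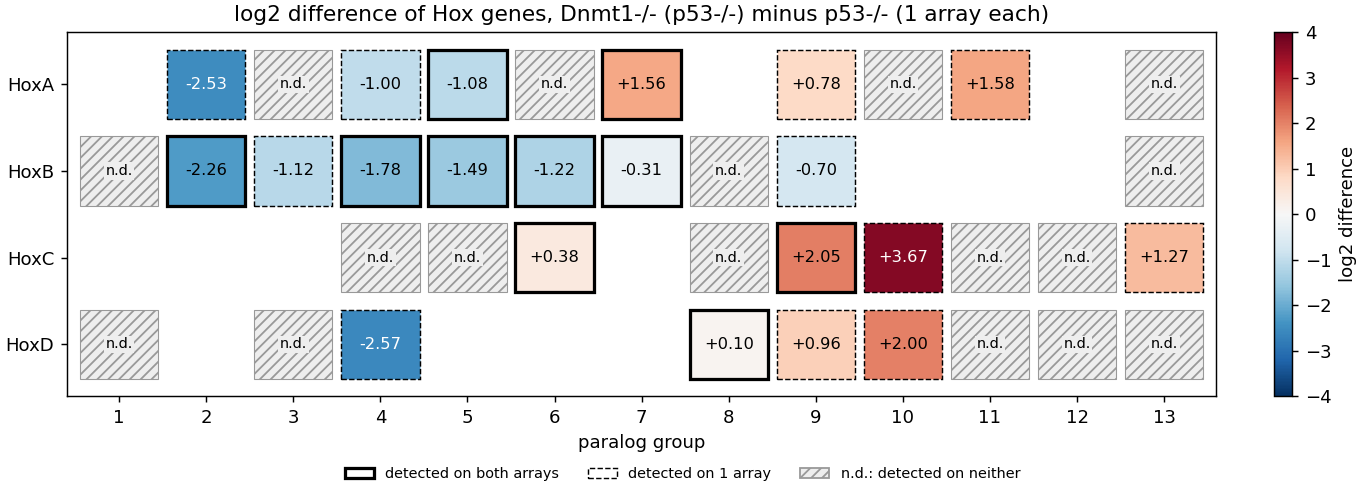
Log2 difference, Dnmt1-/- (p53-/-) minus p53-/-, of each Hox gene, with clusters in rows and paralog groups in columns; thick solid frames mark detection on both arrays, dashed frames detection on 1 array, hatched cells genes detected on neither, and blank positions have no gene here. The 6 detected genes of groups 1 to 4 lie at -1.001 or below, 7 of the 8 detected genes of groups 9 to 13 at 0.78 or above, and 17 of the 38 positions are hatched.

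Detection was part of this pattern. The Dnmt1-/- (p53-/-) array alone detected 6 genes (Hoxa9, Hoxa11, Hoxc10, Hoxc13, Hoxd9 and Hoxd10), all of paralog groups 9 to 13. The p53-/- array alone detected 5 genes (Hoxa2, Hoxa4, Hoxb3, Hoxb9 and Hoxd4), of which only Hoxb9 lies outside groups 1 to 4. Detection on 1 array only thus held for 11 of the 21 detected Hox genes, beside 877 of all 7727 detected genes. How those 877 divide between the arrays was not counted. A gene that passes on 1 array tends to differ by construction. Of all 877 such genes 46.6% were past 2-fold, against 8 of these 11 Hox genes. The 10 Hox genes detected on both arrays avoid that limit, and 2 of them were higher (Hoxa7 and Hoxc9) and 5 lower (Hoxa5, Hoxb2, Hoxb4, Hoxb5 and Hoxb6). Over all genes detected on both arrays 2.88% were higher and 2.6% lower.

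Median and order gave different pictures of the same genes. The median difference of the 21 detected genes was -0.31 log2, beside -0.04 log2 over all detected genes, because members moved in opposite directions. Their median absolute difference was 1.27 log2, beside 0.26 log2 over all detected genes. Paralog number and difference had a Spearman rho of 0.88 over the 10 genes detected on both arrays. Over all 21 detected genes rho was 0.87, but for 11 of them detection on 1 array alone favours the sign of the difference, and over all 38 genes, detected or not, it was 0.55. These correlations describe genes measured on the same 2 arrays, and neighbouring genes are not independent points.

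The promoters of 4 genes are shown, from 250 bases before to 50 bases after the gene's start, because these genes stood at opposite ends of the pattern and the missing enzyme acts on the dinucleotide CG, which is in capitals. Sequences are RefSeq's, build GRCm38.p6, 5′ to 3′ as the table gives them. Methylation was not measured on these arrays. Hoxa2 (chr6:52164782-52165081, minus strand) and Hoxd4 (chr2:74721728-74722027, plus strand) were lower, and Hoxa11 (chr6:52245761-52246060, minus strand) and Hoxd10 (chr2:74691641-74691940, plus strand) were higher in the Dnmt1-/- (p53-/-) line.
Hoxa2: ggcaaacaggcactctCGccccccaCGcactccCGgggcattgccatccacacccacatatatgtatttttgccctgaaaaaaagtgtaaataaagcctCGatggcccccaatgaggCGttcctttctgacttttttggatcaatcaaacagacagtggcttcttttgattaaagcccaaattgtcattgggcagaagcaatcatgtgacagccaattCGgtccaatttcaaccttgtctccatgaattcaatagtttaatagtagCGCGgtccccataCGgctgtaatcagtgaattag
Hoxd4: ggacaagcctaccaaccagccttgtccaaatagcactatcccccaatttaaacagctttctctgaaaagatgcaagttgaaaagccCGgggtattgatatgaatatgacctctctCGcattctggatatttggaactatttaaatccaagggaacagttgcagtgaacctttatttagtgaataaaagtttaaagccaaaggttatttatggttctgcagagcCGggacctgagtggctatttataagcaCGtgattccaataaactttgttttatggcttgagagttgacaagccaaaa
Hoxa11: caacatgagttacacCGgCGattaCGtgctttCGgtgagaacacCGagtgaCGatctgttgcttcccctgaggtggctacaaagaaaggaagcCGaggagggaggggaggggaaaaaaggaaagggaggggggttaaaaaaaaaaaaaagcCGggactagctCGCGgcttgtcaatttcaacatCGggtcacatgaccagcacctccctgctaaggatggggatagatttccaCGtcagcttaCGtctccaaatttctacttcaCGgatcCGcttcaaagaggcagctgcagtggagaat
Hoxd10: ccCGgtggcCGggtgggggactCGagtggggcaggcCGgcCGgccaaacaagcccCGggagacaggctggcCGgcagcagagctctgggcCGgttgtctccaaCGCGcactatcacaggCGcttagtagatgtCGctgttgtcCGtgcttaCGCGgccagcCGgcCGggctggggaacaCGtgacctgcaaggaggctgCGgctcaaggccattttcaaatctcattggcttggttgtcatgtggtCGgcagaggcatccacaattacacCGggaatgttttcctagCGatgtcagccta

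The promoters of Hoxa2 and Hoxd4 held 9 and 4 CG, and those of Hoxa11 and Hoxd10 held 15 and 22. A promoter sequence was found for 22 of the 38 genes (24 sequences), with a median of 14.5 CG, beside a median of 7 over all 32851 promoters of the table. The groups overlapped: 4 promoters of genes lower by 2-fold or more held 4 to 29 CG, and 3 of genes higher by 2-fold or more held 9 to 22. Both strands were also searched for TAATTA, a homeodomain core, for TGATNNAT, a shared PBX and HOX motif, and for TTTATNG, a motif of CDX and high-numbered HOX proteins, with overlaps between motifs allowed. TAATTA was found in 2 of the 24 Hox promoters and in 5.29% of all promoters, TGATNNAT in 4 and in 8.85%, and TTTATNG in 2 and in 10.9%. Among the promoters shown, Hoxa2 had 1 TGATNNAT and Hoxd4 had 3 TTTATNG. A match is a description of these letters only.

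Paralog groups 2 and 3 pattern the hindbrain and the neural crest of the throat. Hoxa2, which sets the identity of the second branchial arch, had a signal of 145 units on the Dnmt1-/- (p53-/-) array (not detected, detection p 0.0401) and 393 units on the p53-/- array. Hoxa2 was at least 5.21-fold lower, where "at least" marks a lower limit under the processing used here. A level below detection was set at its own value or at the lowest detected level of that array, whichever was higher. Other processing can give less: without background correction Hoxa2 differed by -1.26 log2, Hoxd4 by -1.29 log2 and Hoxc10 by 2.06 log2. Hoxa11 and Hoxd10 then differed by 0.61 and 0.79 log2. The other probe of Hoxa2 gave a measured difference of -2.50 log2, beside -2.53 log2 for the brighter probe. Hoxb2, which acts in hindbrain segments and facial nerve cells, was detected on both arrays at 212 and 687 units in the Dnmt1-/- (p53-/-) and p53-/- lines, a 4.795-fold lower normalized level (-2.26 log2). For Hoxb3, 1 of 3 probes was detected, with 132 units in the Dnmt1-/- (p53-/-) line (not detected) and 198 units in the p53-/- line. Its measured difference of -1.12 log2 passed 2-fold, but at its lower limit it differed by -0.57 log2, and the mean of its probes differed by -0.49 log2.

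The genes of paralog group 4 shape the neck vertebrae, and Hoxb4 is also known for expanding blood stem cells. Hoxd4 had 146 units in the Dnmt1-/- (p53-/-) line (not detected, detection p 0.0285) and 403 units in the p53-/- line, at least 5.402-fold lower. Hoxb4 was measured at 240 units in the Dnmt1-/- (p53-/-) line and 627 units in the p53-/- line, 3.43-fold lower (-1.78 log2). Hoxa4 had 163 units in the Dnmt1-/- (p53-/-) line (not detected, detection p 0.0323) and 252 units in the p53-/- line. With a difference of -1.001 log2 Hoxa4 was the gene just inside the 2-fold rule. Hoxc4 was detected on neither array, as were Hoxa3, Hoxd3, Hoxb1 and Hoxd1 of the lower groups.

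**Figure D2:**
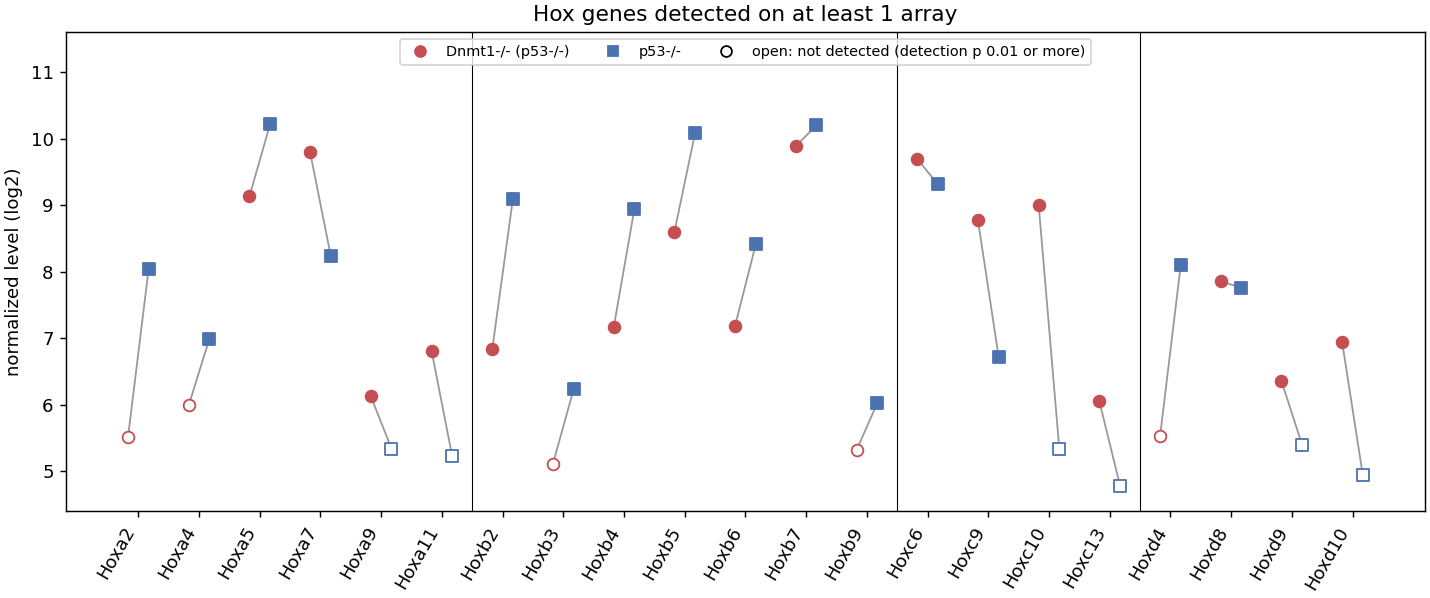
Normalized log2 level of each detected Hox gene on the Dnmt1-/- (p53-/-) array (circles) and on the p53-/- array (squares), with 1 array per genotype; open symbols were not detected, lines join the values of a gene, and levels are comparable within a gene only. Circles lie below squares for all 7 HoxB genes and above them for all 4 HoxC genes.

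Paralog groups 5 and 6 belong to the level of the forelimb and upper chest. Hoxa5, needed for the lung and airway, had 642.5 units in the Dnmt1-/- (p53-/-) line and 1332 units in the p53-/- line, 2.12-fold lower (-1.08 log2). Hoxb5, which helps place the shoulder, had 475 and 1219.8 units in the Dnmt1-/- (p53-/-) and p53-/- lines, 2.80-fold lower (-1.49 log2). Hoxb6, its neighbour in the cluster, had 242 units in the Dnmt1-/- (p53-/-) line and 471 units in the p53-/- line, 2.33-fold lower (-1.22 log2). Hoxc6, of the same paralog group as Hoxb6, had 913 units in the Dnmt1-/- (p53-/-) line and 771 units in the p53-/- line, a difference of 0.38 log2 that did not reach 2-fold. Hoxa6 and Hoxc5 were detected on neither array.

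Paralog groups 7 and 8 mark the chest. Hoxa7 had 968 units in the Dnmt1-/- (p53-/-) line and 430 units in the p53-/- line, 2.94-fold higher (1.56 log2), 2 numbers on from Hoxa5, which was lower. Hoxb7 was within 2-fold, with 1033.8 units in the Dnmt1-/- (p53-/-) line and 1316.9 units in the p53-/- line (-0.31 log2). Hoxd8 was nearly level at 324 and 346.5 units in the Dnmt1-/- (p53-/-) and p53-/- lines (0.10 log2). Hoxb8 and Hoxc8 were detected on neither array.

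Paralog group 9, which acts in the lower chest, the mammary gland and the posterior limb bud, had all 4 of its genes detected. Hoxc9 had 527 units in the Dnmt1-/- (p53-/-) line and 230.0 units in the p53-/- line, 4.145-fold higher (2.05 log2). Hoxd9 had 180 units in the Dnmt1-/- (p53-/-) line and 163 units in the p53-/- line (not detected), and its measured difference of 0.96 log2 lay just outside the 2-fold rule. Raw signals of the arrays differ in background, with a median over all probes of 130 units in the Dnmt1-/- (p53-/-) line and 150.5 units in the p53-/- line, so a near-equal signal can give a difference after correction. Hoxa9 had 169 units in the Dnmt1-/- (p53-/-) line and 161 units in the p53-/- line (not detected), with a difference of 0.78 log2. Of its 3 probes only 1 was detected. The 3 ran from 0.05 to 1.16 log2, and both ends came from probes detected on neither array. Hoxb9 went the other way, with 139 units in the Dnmt1-/- (p53-/-) line (not detected) and 188 units in the p53-/- line, a difference of -0.70 log2 within 2-fold.

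Genes of paralog groups 10 to 13 pattern the lumbar and sacral spine, the limbs and the genital tract. Hoxc10, of the lumbar spine and hindlimb, showed the largest difference of all Hox genes, with 599.5 units in the Dnmt1-/- (p53-/-) line and 161 units in the p53-/- line (not detected, detection p 0.0667), at least 10.9-fold higher. Its other probe, with 368 units in the Dnmt1-/- (p53-/-) line and 171 units in the p53-/- line, differed by 2.495 log2, so both probes were past 2-fold. Hoxd10, its paralog, had 220.0 units in the Dnmt1-/- (p53-/-) line and 146 units in the p53-/- line (not detected), at least 2.58-fold higher. Both detected genes of group 10 were thus detected in the Dnmt1-/- (p53-/-) line alone, while neither of the 2 probes of Hoxa10 was detected.

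Hoxa11, needed for the forearm, the kidney and the uterus, had 210 units in the Dnmt1-/- (p53-/-) line and 157 units in the p53-/- line (not detected), at least 2.37-fold higher. Hoxc13, of hair and nails, had 166 units in the Dnmt1-/- (p53-/-) line and 139 units in the p53-/- line (not detected). Its measured difference of 1.27 log2 passed 2-fold, but its lower limit was 1.40-fold. Hoxc11, Hoxc12, Hoxd11, Hoxd12, Hoxd13, Hoxa13 and Hoxb13 were detected on neither array. Hoxa13 missed the detection rule narrowly in the Dnmt1-/- (p53-/-) line, with a detection p of 0.0103 for its brightest probe (151.5 units). In the p53-/- line the same probe was also near the rule, with a detection p of 0.0197 (167.0 units).

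The clusters differed in their balance. HoxB had 5 genes lower and 0 higher of 7 detected, with a median difference of -1.22 log2, and all 7 values were below 0. HoxC had 3 genes higher and 0 lower of 4 detected, with a median of 1.66 log2, and all 4 values were above 0. HoxA had 2 higher and 3 lower of 6 detected, and HoxD 1 higher and 1 lower of 4. The detected genes of HoxB lay in groups 2 to 7 and 9 and those of HoxC in groups 6, 9, 10 and 13, so cluster and paralog number overlap. Within a cluster, paralog number and difference had a Spearman rho of 0.89 over 6 genes of HoxA and 0.75 over 7 of HoxB. It was 0.4 over 4 genes of HoxC and 1.0 over 4 of HoxD, and 0.81 over the 14 genes outside HoxB. The separate parts of cluster and paralog number were not tested. Detection on both arrays held for 5 of the 7 HoxB genes and 2 of the 4 HoxC genes, as for 2 of 6 in HoxA and 1 of 4 in HoxD.

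**Figure D3:**
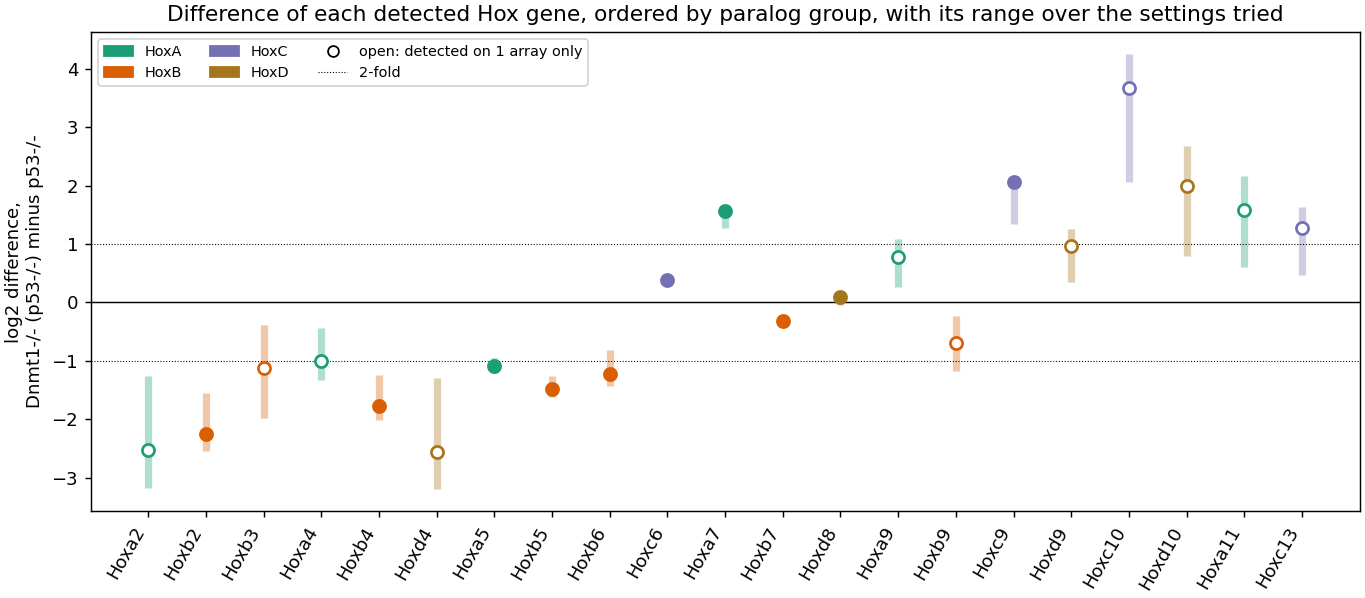
Log2 difference, Dnmt1-/- (p53-/-) minus p53-/-, of each detected Hox gene in order of paralog group; circles are the values reported, open where the gene was detected on 1 array only, bars span the reported value and 9 other ways of processing, and dotted lines mark 2-fold. Values run from -2.57 log2 for Hoxd4 to 3.67 log2 for Hoxc10, and the bar of Hoxd8 alone crosses 0. Settings that change only the detection rule leave these values as they are.

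Limits on dim genes move some of these counts. With each gene that was not detected on 1 array set at its lower limit, 5 Hox genes passed 2-fold upward and 8 downward, beside 4.5% and 3.71% of all detected genes. Counted by probe, 7 of 23 detected Hox probes were higher and 10 lower, beside 5.21% and 4.18% of all detected probes. Without background correction 3 Hox genes were higher (Hoxa7, Hoxc9 and Hoxc10) and 5 lower (Hoxa2, Hoxb2, Hoxb4, Hoxb5 and Hoxd4). The shares of all detected genes were not counted for that setting. Whether this drop is particular to Hox genes was therefore not tested.

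Of the detected genes that border the clusters, none passed 2-fold. The 5 nearest protein-coding genes on each side of each cluster made 40 genes, a set drawn by position after the Hox values were seen, of which 37 had a probe and 25 were detected. Past 2-fold there were 0 upward and 0 downward of these 25, beside 5.55% and 4.59% of all detected genes, so a count of 0 in a set of this size is near the background. Their differences ran from -0.91 to 0.86 log2. The extremes were Calcoco1, 1 gene beyond Hoxc13, and Snx10, beside HoxA. Evx1 and Evx2, homeobox genes next to Hoxa13 and Hoxd13, were detected on neither array.

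**Figure D4:**
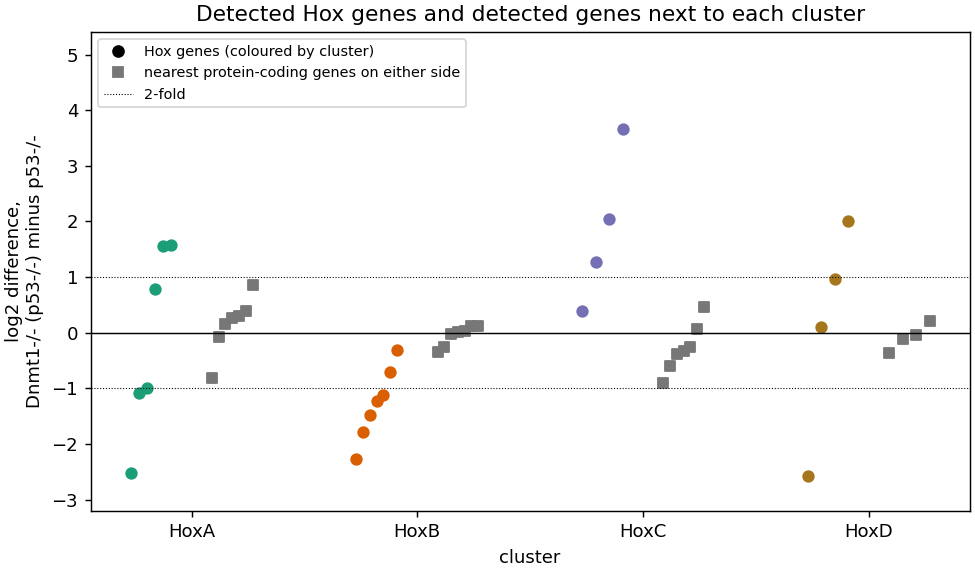
Log2 difference, Dnmt1-/- (p53-/-) minus p53-/-, of the detected Hox genes (circles) and of the detected genes among the 5 nearest on either side of each cluster (squares), sorted by value within each column; dotted lines mark 2-fold. The 25 neighbours lie between -0.91 and 0.86 log2, and 15 of 21 Hox genes lie at or beyond 2-fold.

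Genes that work with or act on Hox genes were read against the same shares of all detected genes, 5.55% higher and 4.59% lower. HOX proteins bind DNA together with TALE homeodomain partners, and of 7 such genes on the array all 7 were detected, 0 were higher and 1 was lower. This was Meis1, with 697 units in the Dnmt1-/- (p53-/-) line and 1418 units in the p53-/- line (-1.06 log2), and Pbx2 differed by -0.65 log2. The TALE list had a median of -0.33 log2. Of 16 retinoic acid genes 6 were detected, 0 were higher and 2 lower, with a median of -0.71 log2. Crabp1, which binds retinoic acid in the cell, had 578.5 and 1287.5 units in the Dnmt1-/- (p53-/-) and p53-/- lines (-1.22 log2). Rarb, a retinoic acid receptor whose gene retinoic acid itself induces, was detected in the p53-/- line alone, with a measured difference of -1.36 log2 and a lower limit of 1.445-fold. The enzymes that make and break down retinoic acid (Aldh1a1, Aldh1a2, Aldh1a3, Cyp26a1 and Cyp26b1) were detected on neither array, nor were Cdx1, Cdx2 and Cdx4, activators of central Hox genes.

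Polycomb and trithorax proteins are the chromatin regulators best known for holding Hox genes off or on, and as most detected genes lie within 2-fold, their counts are near the background. Of 28 Polycomb genes 21 were detected, all 21 within 2-fold (1 was lower with the authors' processed values), with a median of 0.02 log2. Rnf2, a subunit that ubiquitinates histone H2A, was detected in the p53-/- line alone and differed by -0.72 log2, and Cbx2, which binds methylated histone H3, differed by -0.63 log2. Of 10 genes of the trithorax group and histone demethylases all 10 were detected and within 2-fold, with a median of -0.14 log2. In this list Men1, a partner of the MLL methyltransferases, differed by -0.66 log2 and Ash2l, a core subunit, by 0.51 log2.

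Other genes of body position also differed in both directions. Of 26 transcription factors of the limb and body regions 12 were detected, 3 higher and 4 lower, beside 5.55% and 4.59% of all detected genes. The 3 higher became 0 with an offset of 50 and 1 with levels below detection at their limits. The lower ones were Meox1 (-2.86 log2, detected in the p53-/- line alone and at least 3.802-fold), Irx3 (-2.12 log2), En1 (-1.24 log2) and Prrx1 (-1.18 log2). The higher ones, named after their values were seen, were Tbx18 (1.17 log2, lower limit 1.575-fold) and Isl1 (1.14 log2, lower limit 1.474-fold), both detected in the Dnmt1-/- (p53-/-) line alone, and Tbx3 (1.005 log2). Tbx5, Tbx4 and Pitx1, which separate forelimb from hindlimb, were detected on neither array. Of 19 head mesenchyme factors 7 were detected, with Msx1 higher (1.92 log2) and Six2 (detected in the p53-/- line alone, at least 2.136-fold) and Dlx1 (-1.14 log2) lower.

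Checks of the lines stand beside these results. The Dnmt1 probe gave 439 units in the Dnmt1-/- (p53-/-) line and 1714.5 units in the p53-/- line (-2.18 log2), where this probe lies relative to the mutation was not determined, and Trp53 was not analysed here. Of 8 fibroblast markers 7 were detected on both arrays and within 2-fold (Postn was not detected), with a median of -0.51 log2. Among markers of other cells, Cd14 (1.16 log2) of 5 haematopoietic and Map2 (-1.60 log2) of 7 neural markers were detected on both arrays. Of 7 epithelial markers, Krt14 (3.92 log2, lower limit 8.741-fold) and Krt8 (0.35 log2, lower limit 1.166-fold) were detected, in the Dnmt1-/- (p53-/-) line alone. Of 6 embryonic stem cell markers, Nanog (-0.505 log2, lower limit 1.117-fold) was detected, in the p53-/- line alone. Summed signals of the epithelial list were 1277 and 1054 units in the Dnmt1-/- (p53-/-) and p53-/- lines, with Cdh1 not detected. For the neural list they were 971 and 1408 units, with Sox2 and Tubb3 not detected, and for the haematopoietic list 787 and 769 units, with Ptprc not detected. The embryonic stem cell list summed to 738 and 897 units, with Pou5f1 not detected. All 6 endothelial markers (703 and 822 units) and all 5 trophoblast markers (565 and 672 units) were not detected. These sums are of raw signals that include background. The median raw signal over all probes was 129.8 units in the Dnmt1-/- (p53-/-) line and 150.5 units in the p53-/- line. The sums are therefore not marker levels to compare between the lines. The Y-linked genes Eif2s3y, Kdm5d and Uty, named after their values were seen, were detected in the p53-/- line alone. Eif2s3y had 117.5 units in the Dnmt1-/- (p53-/-) line (not detected) and 1394.8 units in the p53-/- line. Kdm5d had 115.2 and 278.9 units in these lines, and Uty 147.5 and 183.9 units, within 2-fold. The part of other cell types or of the source of the lines in the Hox differences was not tested.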

How the data were processed

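The labels describe total RNA taken with TRIZOL, amplified and labelled with biotin, 1 array per genotype. The authors deposited a linear intensity for each probe, not normalized per the file headers, and a detection p-value per probe and array. Scanner software and background steps are not stated there. The authors also deposited processed intensity values, with column medians of 13.8 (Dnmt1-/- (p53-/-)) and 14.2 (p53-/-) and 26.4% and 26.7% of values below 0. They rank probes as the unprocessed signals do (Spearman rho 1.0), and how they were corrected and scaled is unknown.

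With limma 3.58.1 in R 4.3.3, background was corrected by the normexp method of neqc, with negative controls inferred through the detection p-values and an offset of 16. Quantile normalization over the whole table and log2 followed. The step was tested on simulated data in which only bright probes were changed by known folds and checked. That test does not cover dim genes. Genes came from the platform annotation (23978 probes with 1 symbol, 0 with several and 1719 with none). The Entrez identifiers of 23962 probes matched RefSeq GRCm38.p6, and 0 symbols changed. Of a gene's probes the one with the highest mean level was used. Differences are Dnmt1-/- (p53-/-) minus p53-/-. Detected means a detection p-value under 0.01 on at least 1 array. Where 1 array did not detect a gene, its fold is a lower limit ("at least") against the higher of its own value and the lowest detected level (5.66 log2 on the Dnmt1-/- (p53-/-) array, 5.57 log2 on the p53-/- array). Such a limit holds for this processing only, and differences without background correction can be smaller. The 2-fold rule was applied to the measured difference. Every detected Hox gene was named, and from other lists up to 4 members past 2-fold, or up to 2 detected members with the largest difference. The members and lists were chosen with earlier results of these data known. Python 3.11.15, numpy 2.4.6, pandas 2.3.3, scipy 1.17.1 and matplotlib 3.10.9 were used.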

Additional observations from a re-analysis of the deposited data

How the results depend on the processing

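Over 9 alternatives 0 of the 15 Hox genes past 2-fold changed direction, and 8 of the 15 stayed past 2-fold in each of the 9 (Hoxa2, Hoxa7, Hoxb2, Hoxb4, Hoxb5, Hoxc9, Hoxc10 and Hoxd4). Among the 9, a detection p under 0.05 and no filter on dim probes leave each difference as it was. Levels set at their limits cannot reverse a direction, and the mean of probes moves only genes with several probes. Hoxd8, within 2-fold, changed sign under median scaling (-0.05 log2) and with the authors' processed values (-0.04 log2). Without background correction, where the shares of all genes were not counted, 3 Hox genes were higher and 5 lower (by probe 4 and 6). By cluster these were 1 higher and 1 lower in HoxA, 3 lower in HoxB, 2 higher in HoxC, and 0 higher and 1 lower in HoxD. By position they were 4 lower in paralog groups 1 to 4 (also 4 with an offset of 50), 1 higher and 1 lower in groups 5 to 8, and 2 higher in groups 9 to 13. The TALE list then had 0 lower, the limb and body list 0 higher and 2 lower, and the head and haematopoietic lists 0 of either. The retinoic acid list had 1 lower without background correction, with an offset of 50, with the mean of probes and at the limits. The limb and body list had 0 higher with an offset of 50 and 1 at the limits. The haematopoietic list had 0 higher with an offset of 50, and the neural list 0 lower with the mean of probes. The authors' processed values gave 2 lower TALE genes and 1 lower Polycomb gene, and 1 fibroblast marker was lower with them and under median scaling. With the authors' processed values 2 genes of HoxD were higher and 1 gene of groups 9 to 13 (Hoxb9) was lower. With no filter on dim probes the rank correlation of paralog number with the difference fell to 0.55, over 38 genes of which 17 were detected on neither array. The median of all detected genes was -0.11 log2 under median scaling and with the authors' values. No paired analysis was possible because each genotype had 1 array. No replicate could be left out, so signal over background and the number of arrays limit every value.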
